A study of Homo sapiens with 4 samples.

Results

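The subunits of oxidative phosphorylation are the proteins of the 4 complexes of the respiratory chain and of ATP synthase, which is counted as complex V. They were taken from the deposited gene table by symbol, among protein-coding genes. NDUF symbols needed letters from A, B, C, S and V followed directly by a digit. The other nuclear symbols were SDHA to SDHD, the UQCR genes, CYC1, COX4 to COX8 with a letter A, B or C, and the ATP5 genes. Added to them were the 13 mRNAs of mitochondrial DNA (ND1 to ND6 with ND4L, CYTB, COX1 to COX3, ATP6 and ATP8). This rule gave 100 of the 46427 genes in the table, 87 encoded in the nucleus and 13 in mitochondria. By complex, the nuclear members were 37 for complex I, 4 for complex II, 10 for complex III, 17 for complex IV and 19 for complex V.

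H1299 (NCI-H1299) is a human line of non-small cell lung cancer, and DDX21 KO is a derivative of it in which the RNA helicase gene DDX21 was knocked out. Each line was sequenced in a non-treated form and with a miR-34a mimic, transfected with Lipofectamine RNAiMAX at 25 nM and harvested at 48 hours. RNA was freed of ribosomal RNA and made into stranded total RNA libraries, 1 per group. No control RNA is named for the non-treated cells, so a miR-34a comparison also contains the transfection, and whether DDX21 KO is a clone is not given.

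Oxidative phosphorylation passes electrons from NADH and succinate through complexes I to IV to oxygen, and the proton gradient built on the way drives ATP synthase. All subunits of complex II are nuclear, while complexes I, III, IV and V join nuclear proteins with a few hydrophobic ones made on mitochondrial ribosomes. The mitochondrial mRNAs are cut out of long transcripts that start near the control region of mitochondrial DNA: the light-strand transcript yields ND6, and the heavy-strand transcripts yield the others. The nuclear mRNAs come from separate promoters.

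Libraries held 26868358 to 36263145 estimated counts. With 1 library per group there are no replicates and no test of a condition. Every ratio below is a log2 ratio of TMM-scaled estimated counts between libraries, given with its 95% counting interval, which covers the sampling of reads and nothing else. "Called" means a ratio of at least 2-fold whose interval leaves out 0, and "beyond counting error" means an interval that leaves out 0 at any size. Genes with more counts pass the latter rule at smaller ratios, and the shares over all genes are not matched for counts. A gene entered a comparison with at least 50 counts in at least 1 library compared. DDX21 itself stood at 722 CPM (counts scaled to library size) in non-treated H1299, 588 in H1299 with miR-34a, 206 in non-treated DDX21 KO and 182 in DDX21 KO with miR-34a. Epithelial keratins KRT8 and KRT18, CDH2 and VIM were present in every library, CDH1 had at most 5 counts and EPCAM at most 18, and 13 markers of blood, endothelial and stromal cells summed to 16 to 42 counts, with 8 to 10 of them at 0. The authors' deposited table of changed genes lists 908 genes and 0 of the members.

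At the level of whole genomes, nuclear members held far more of the estimated counts than mitochondrial ones. These are shares of counts and not of cellular RNA, since how reads shared with nuclear copies were divided is not stated. How fully mitochondrial reads were kept in processing is not stated either. In non-treated H1299, in H1299 with miR-34a, in non-treated DDX21 KO and in DDX21 KO with miR-34a, in that order, nuclear members took 0.917, 0.972, 0.967 and 0.949% of all counts. The mitochondrial members took 0.120, 0.103, 0.0869 and 0.0783%. Of the counts on all members, the mitochondrial share was 11.6% (exact Clopper-Pearson interval 11.5 to 11.7), 9.59% (9.50 to 9.69), 8.25% (8.15 to 8.35) and 7.62% (7.53 to 7.71). The mitochondrial share was thus highest in non-treated H1299 and lower in both knockout libraries than in either H1299 library, and none of the 4 counting intervals overlap. Fewer mitochondrial genomes per cell and less RNA per genome cannot be told apart in such bulk RNA.

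Levels were compared between genes per length, as FPKM deposited by the authors. In non-treated H1299, 3 nuclear members stood highest: ATP5F1B, the catalytic beta subunit of ATP synthase, at 548 FPKM, COX6B1 of complex IV at 440 and ATP5ME, a small membrane subunit of ATP synthase, at 281. The median over the 83 nuclear members detected in any library was 59.8 FPKM there. The mitochondrial median was 17.2 FPKM, and mitochondrial mRNAs spread over 102-fold from the lowest to the highest.

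The mRNAs of complex IV led the mitochondrial levels. COX1, the subunit of complex IV that holds its oxygen-reducing site, stood at 399 FPKM in non-treated H1299, COX3 at 299 and COX2, which takes electrons from cytochrome c, at 118. CYTB, the mitochondrial subunit of complex III, came next at 32.2 FPKM. ND4 (24.2), ATP6 (19.5), ND4L (17.2), ND5 (14.2), ND2 (13.5), ND1 (13.01), ND3 (11.8) and ATP8 (8.73) followed, and ND6, the light-strand mRNA, was lowest at 3.91 FPKM. COX1 and COX3 together gave 78.8 to 82.4% of the mitochondrial mRNA counts in the 4 libraries, so summed mitochondrial values follow these genes. Within complex IV the mitochondrial mRNAs had a higher median than the nuclear ones in non-treated H1299 (299 against 104 FPKM), whereas within complex I they had a lower one (13.5 against 51.6 FPKM).

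**Figure D1:**
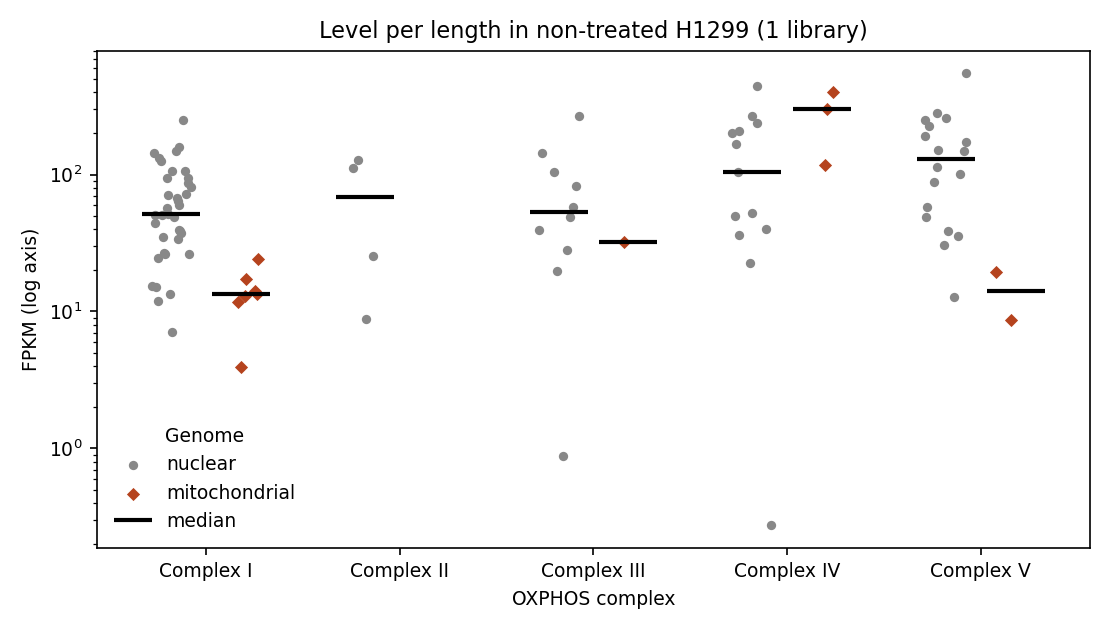
FPKM (log axis) of each member above 0 in the non-treated H1299 library, by complex and genome; each point is a gene and bars are medians. The mitochondrial mRNAs of complex IV reach 399 FPKM, while those of complex I lie between 3.91 and 24.2.

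Reads of some mitochondrial members can also come from nuclear copies of mitochondrial DNA. Of the 50-base windows of COX1, 49.5% also occur in a transcript of another GENCODE gene, mostly the pseudogene MTCO1P12, and the shares were 46.7% for ATP6, 43.6% for ND2, 30.6% for COX3 and 28.98% for COX2. CYTB shares 1.19% of its windows, and ND3 and ND4L share none. How the authors' counting divided such reads is not stated, so values of the members with high shares are uncertain. Neighbours on mitochondrial DNA overlap as well: ND4L and ND4 share 7 bases, and the last 46 bases of ATP8 are also the first 46 of ATP6, at chrM:8527-8572 on the plus strand of GRCh38. That stretch is printed here because it is part of a gene of only 207 bases with few counts, and capitals mark the ATP6 start codon and the last bases of ATP8:
ATP8 and ATP6 overlap: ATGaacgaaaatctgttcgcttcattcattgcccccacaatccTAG

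Across the libraries, mitochondrial members were mostly highest in non-treated H1299 (12 of 13) and mostly lowest in DDX21 KO with miR-34a (9 of 13). Their levels spanned a median of 1.73-fold from the lowest to the highest of the 4 libraries, against a median of 1.30-fold for the 80 nuclear members that entered. Of those nuclear members, 73 stayed within 1.5-fold. The highest library of a nuclear member was non-treated H1299 for 17, H1299 with miR-34a for 29, non-treated DDX21 KO for 16 and DDX21 KO with miR-34a for 18.

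**Figure D2:**
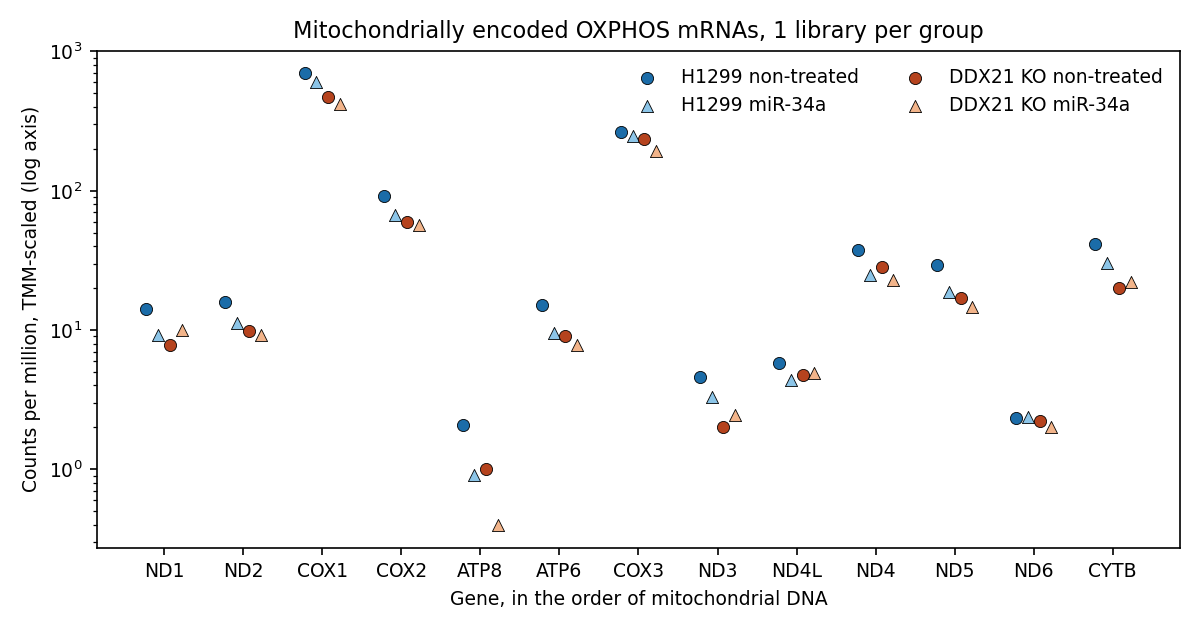
TMM-scaled CPM (log axis) of the 13 mitochondrially encoded mRNAs in gene order, with 1 point per library. The non-treated H1299 library is highest for all but ND6, where the 4 libraries lie between 2.01 and 2.37.

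For complex I, the counts of ND1, which is a core membrane subunit, were 504 in non-treated H1299, 305 in H1299 with miR-34a, 210 in non-treated DDX21 KO and 330 in DDX21 KO with miR-34a. Non-treated H1299 was highest and non-treated DDX21 KO lowest. ND2, ND4 and ND5 are the proton-pumping subunits of the membrane arm. ND2 had 568, 369, 265 and 302 counts in the same order of libraries. ND4 had 1351, 815, 761 and 746 counts, and ND5 had 1041, 619, 457 and 477. In CPM, each was highest in non-treated H1299 and lowest in DDX21 KO with miR-34a. ND3 had 165, 109, 54 and 80 counts and ND4L 207, 145, 127 and 162. Both are small subunits at the base of the membrane arm, and both rest on few reads. ND6, a membrane subunit, had 83, 78, 60 and 66 counts, or 2.32, 2.37, 2.23 and 2.01 CPM, which is nearly level. The use of strand in the counting is not stated, so RNA from the strand opposite ND6 cannot be told apart from it.

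CYTB, which carries the quinone sites of complex III, had 1486, 999, 537 and 728 counts, or 41.6, 30.4, 19.9 and 22.2 CPM. Both H1299 libraries lay above both knockout libraries. For complex IV, COX1 had 24872, 19944, 12689 and 13859 counts, which correspond to 697, 606, 471 and 423 CPM. COX2 had 91.1, 66.9, 59.7 and 57.1 CPM. COX3 had 266, 246, 235 and 194 CPM. All 3 were lower in each library of that order than in the one before, with the H1299 libraries above the knockout ones. For ATP synthase, ATP6, the subunit that forms the proton path, had 537, 314, 245 and 256 counts. ATP8, a small peripheral stalk subunit, had 74, 30, 27 and 13, the fewest of all mitochondrial members.

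With miR-34a in H1299, mitochondrial members were lower while most nuclear members were slightly higher. The median log2 ratio was -0.47 over the 13 mitochondrial members and 0.14 over 80 nuclear members, against 0.00 over all 13597 genes that entered. Of the mitochondrial members 12 of 13 were lower beyond counting error, where 35.6% of all genes were, and 0 were higher. Beyond counting error, 50 of 80 nuclear members were higher, where 36.7% of all genes were, and 13 were lower. Calls were rare: ATP8 at -1.13 (-1.85 to -0.55) was the only member called, where 7.89% of all genes were. ATP6 (-0.65), ND5 (-0.63), ND4 (-0.61) and ND1 (-0.60) came next, and the abundant COX1 (-0.20) and COX3 (-0.11) moved less. ND6 stood at 0.03 (-0.44 to 0.49).

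On the nuclear side, NDUFC1, an accessory subunit of complex I, went from 27.8 to 41.1 CPM, at 0.57 (0.45 to 0.69). UQCR11, a small subunit of complex III, went from 41.6 to 59.1 CPM, at 0.51 (0.41 to 0.60). At the other end, ATP5F1B went from 39038 to 28812 counts, at -0.32 (-0.34 to -0.30), and NDUFV1, which holds the NADH-binding site of complex I, went from 4021 to 3069 counts, at -0.27 (-0.34 to -0.20). All these moves stayed within 2-fold. By complex, the nuclear medians were 0.22 for complex I, -0.11 for complex II, 0.06 for complex III, 0.17 for complex IV and 0.08 for complex V. Of the nuclear subunits of complex I, 27 of 37 were higher beyond counting error and 3 lower, where 36.7 and 35.6% of all genes were. The 4 subunits of complex II all had small ratios below 0, and 3 were lower beyond counting error, where 35.6% of all genes were. SDHA, the flavin-bearing subunit, stood at -0.19 and SDHB, the iron-sulfur subunit, at -0.12, while SDHC stood at -0.06 (-0.16 to 0.05). SDHD, a membrane anchor, stood at -0.11. SDHB, SDHC and SDHD fall outside the rule for named genes and were named after their values were seen, to show the whole complex.

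With miR-34a in DDX21 KO, neither genome moved far. The median log2 ratio was -0.12 over 12 mitochondrial members and 0.00 over 80 nuclear members, against 0.00 over all genes. Of the mitochondrial members 4 were lower beyond counting error, where 30.4% of all genes were, and ND1 alone was higher, where 29.8% of all genes were. These 4 were COX1 (-0.16), COX3 (-0.28), ND4 (-0.31) and ND5 (-0.22), and ND1 stood at 0.37 (0.11 to 0.63). Nuclear members split into 28 lower and 21 higher beyond counting error, which are shares near the background. The members called were 0 of 92, where 3.31% of all genes were. ATP8, with 27 and 13 counts, was under the count minimum. UQCRC2, a core subunit of complex III, was lowest of the nuclear members at -0.32 (-0.39 to -0.25), followed by NDUFA5 of complex I at -0.29 (-0.37 to -0.20). COX7B2, a paralog of COX7B, was highest at 0.33 (0.18 to 0.50), beside NDUFAB1, the mitochondrial acyl carrier protein, at 0.33 (0.24 to 0.42).

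In DDX21 KO against H1299, both non-treated, mitochondrial members were lower. The median was -0.69 over 13 mitochondrial members and 0.08 over 80 nuclear members, against -0.02 over all genes. Of the mitochondrial members 11 of 13 were lower beyond counting error, where 35.8% of all genes were, and 0 were higher. Of the nuclear members 39 were higher beyond counting error, where 33.2% of all genes were, and 25 lower. The members called were ND3 at -1.18 (-1.68 to -0.75), CYTB at -1.06 (-1.21 to -0.92), ATP8 at -1.002 (-1.74 to -0.39) and the nuclear ATP5MC1 at -1.06 (-1.16 to -0.95), that is 4 of 93, where 6.54% of all genes were. ATP8 lay on the threshold and was no longer called with library totals or DESeq2 size factors as the scaling. The 2 highest nuclear ratios were of NDUFB4, from 43.0 to 65.7 CPM, and NDUFB3, from 39.5 to 60.2 CPM, accessory subunits of complex I that each stood at 0.61. NDUFA8, another accessory subunit, went from 1606 to 695 counts, at -0.80 (-0.93 to -0.67).

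In DDX21 KO against H1299, both with miR-34a, the direction of the mitochondrial members was again downward and the size smaller. The median was -0.29 over 12 mitochondrial members and -0.10 over 80 nuclear members, against -0.01 over all genes. Of the mitochondrial members 8 of 12 were lower beyond counting error, where 35.7% of all genes were, and 0 were higher. Of the nuclear members 42 were lower and 23 higher beyond counting error, where 34.2% of all genes were higher. ATP5MC1 was the only member called, at -1.09 (-1.20 to -0.99), where 6.95% of all genes were. COX1 stood at -0.52 (-0.55 to -0.49), CYTB at -0.45 (-0.59 to -0.31) and ND3 at -0.43 (-0.88 to -0.01). ATP5PD, a peripheral stalk subunit of ATP synthase, went from 130 to 82.5 CPM, at -0.65 (-0.72 to -0.58). The highest nuclear ratios were of NDUFB3 at 0.45 (0.36 to 0.55) and NDUFA9, an accessory subunit of complex I, at 0.41 (0.35 to 0.46).

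The medians of the 2 genomes lay on opposite sides of 0 in the difference of the miR-34a ratios, taken as DDX21 KO minus H1299. The median difference was 0.41 over 13 mitochondrial members and -0.15 over 80 nuclear members, against -0.01 over all genes. Beyond counting error, 9 of 13 mitochondrial members were above 0, where 22.8% of all genes were, and COX3 alone was below. Of the nuclear members 51 of 80 were below 0, where 24.9% of all genes were, and 4 above. The members past 2-fold were 0 of 93, where 4.18% of all genes were. ND1 differed most, at 0.97 (0.65 to 1.29), followed by ND3 at 0.75 (0.15 to 1.35) and CYTB at 0.61 (0.41 to 0.81). Of the nuclear members, NDUFC1 (-0.48) and NDUFA3 (-0.47), both accessory subunits of complex I, were lowest, and NDUFA8 (0.32) and SDHA (0.18) highest.

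**Figure D3:**
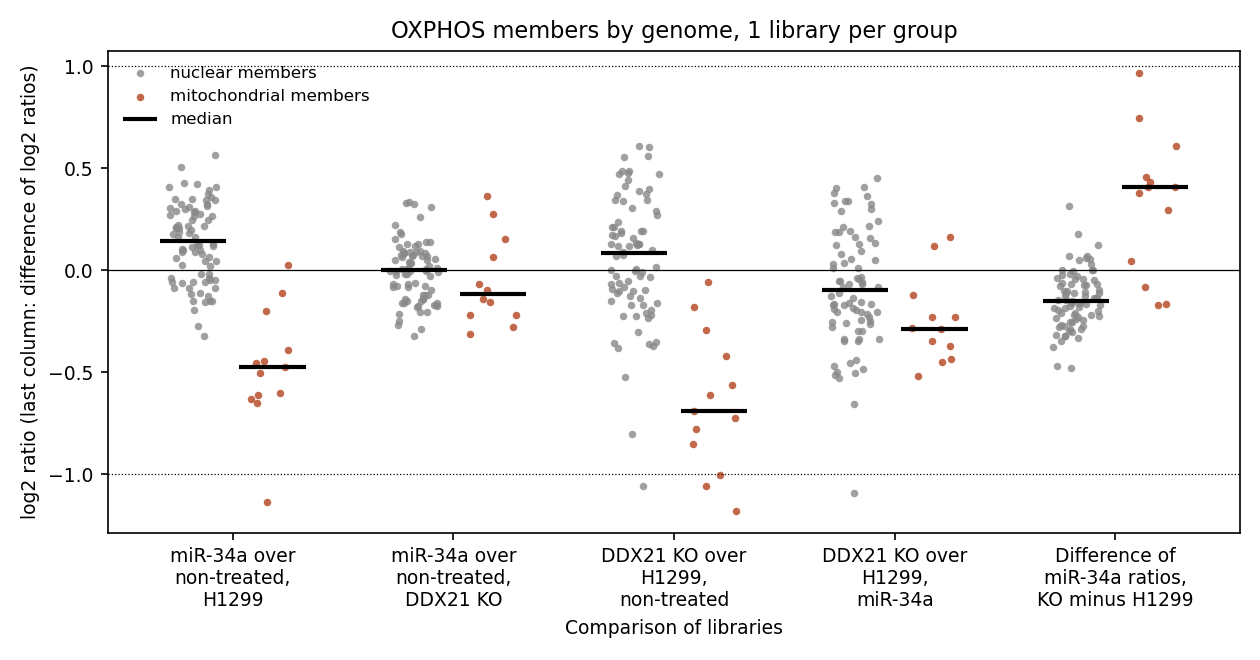
log2 ratios of the nuclear (grey) and mitochondrial (red) members that entered each of 4 comparisons, and the difference of the miR-34a ratios in the last column; each point is a gene, thick bars are medians, and dotted lines mark 2-fold. The mitochondrial median lies below the nuclear one in all 4 comparisons, by 0.12 at the least (miR-34a in DDX21 KO).

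These comparisons share libraries. Non-treated H1299 is in the first, the third and the difference, so its high mitochondrial values enter all of them. The comparisons without that library gave mitochondrial medians of -0.12 (miR-34a in DDX21 KO) and -0.29 (DDX21 KO against H1299 with miR-34a). The same library also had the highest share of counts on genes annotated as rRNA, 0.663%, against 0.431, 0.346 and 0.467% in the other libraries, and its mitochondrial rRNAs were highest too: RNR1 had 76, 27, 10 and 26 counts and RNR2 506, 311, 175 and 174. Since ribosomal RNA was removed before sequencing, these values are what the removal left. The part of rRNA removal in the mitochondrial ratios was not tested.

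ATP5MC1 was the only nuclear member called, and it was called in both comparisons of the lines. Together with ATP5MC2 and ATP5MC3 it encodes the c subunit, which forms the rotating ring of ATP synthase. These genes differ in their targeting peptides and give the same mature protein. ATP5MC1 (chr17:48892787-48895871, GRCh38) had 2650, 2239, 961 and 1045 counts in the 4 libraries in the order used above, or 74.2, 68.1, 35.7 and 31.9 CPM. Both knockout libraries lay at about the same level, below both H1299 libraries. ATP5MC3 (chr2:175176258-175181710) had 108, 113, 152 and 138 CPM, the reverse order of the lines, and stood at 0.49 (0.43 to 0.55) non-treated and 0.29 (0.23 to 0.36) with miR-34a. ATP5MC2 had 120, 116, 130 and 113 CPM.

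In shares of the summed counts of the 3 genes, ATP5MC1 took 24.5 and 22.9% in the H1299 libraries and 11.2 and 11.3% in the knockout libraries. ATP5MC3 took 35.8 and 38.0% in H1299 and 47.8 and 48.8% in the knockout. ATP5MC2 took 39.1 to 41.0%. The summed level of the 3 genes was 303, 297, 318 and 283 CPM, so the sum varied less than its parts. These counts share few sequences with other genes: 2.12% of the 50-base windows of ATP5MC1 occur elsewhere.

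**Figure D4:**
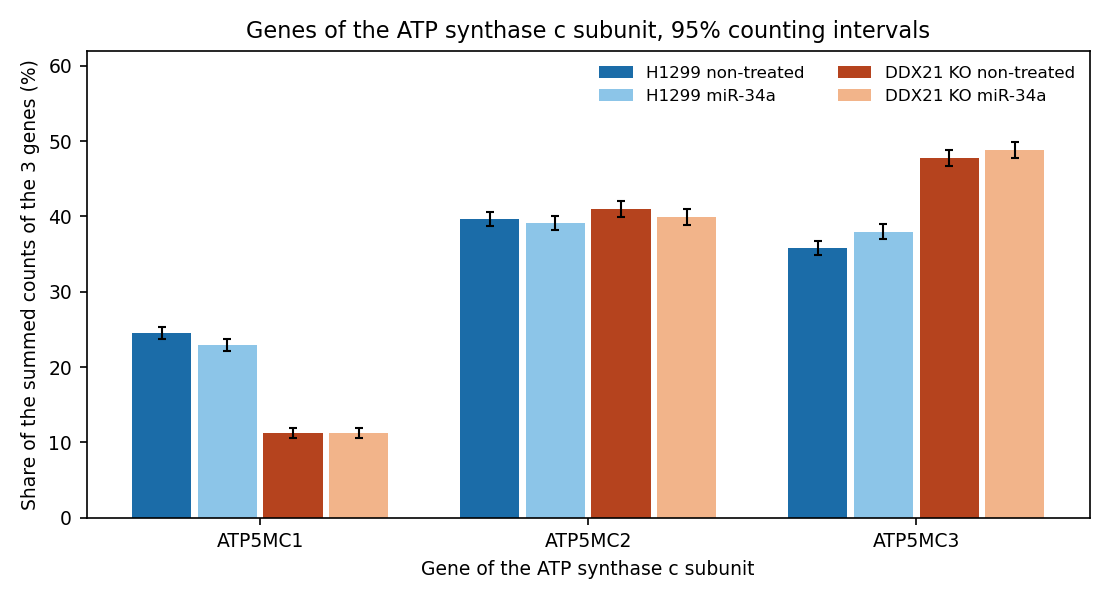
Share of the summed counts of ATP5MC1, ATP5MC2 and ATP5MC3 held by each gene, in percent, for each of the 4 libraries; bars start at 0 and error bars are 95% exact counting intervals. ATP5MC1 holds 24.5 and 22.9% in H1299 and 11.2 and 11.3% in DDX21 KO.

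The promoters of ATP5MC1 and ATP5MC2 are shown because the former was called and the latter moved little. Each runs from 250 bases before to 50 after the RefSeq start (GRCh38.p14). Members were searched, on both strands, for CGGAAG, the core of sites bound by ETS factors such as GABPA, and for GCGCATG, the core of sites bound by NRF1. Capitals mark matches, and ATP5MC1 has none of either in this window, while ATP5MC2 has 1 of GCGCATG, read on the opposite strand.
ATP5MC1, chr17:48892537-48892836, plus strand: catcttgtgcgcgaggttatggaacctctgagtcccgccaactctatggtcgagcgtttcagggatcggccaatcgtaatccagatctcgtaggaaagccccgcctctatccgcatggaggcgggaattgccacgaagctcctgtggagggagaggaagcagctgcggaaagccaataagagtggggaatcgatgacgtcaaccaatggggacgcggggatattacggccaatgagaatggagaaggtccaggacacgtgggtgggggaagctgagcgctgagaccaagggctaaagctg
ATP5MC2, chr12:53676034-53676333, minus strand: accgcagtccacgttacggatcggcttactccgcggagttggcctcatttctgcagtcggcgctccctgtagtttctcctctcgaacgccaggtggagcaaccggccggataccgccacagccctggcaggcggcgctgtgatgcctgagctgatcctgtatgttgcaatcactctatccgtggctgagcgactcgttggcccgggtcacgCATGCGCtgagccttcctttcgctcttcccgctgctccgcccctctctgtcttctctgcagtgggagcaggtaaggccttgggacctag
Of the 71 nuclear members with a promoter in the table, 27 hold CGGAAG (38.0%) and 14 hold GCGCATG (19.7%). Over all 15515 protein-coding genes with a promoter the shares were 25.9 and 5.89%. Of the 67 members that entered the miR-34a comparison in H1299, 38.8 and 20.9% hold them, against 34.7 and 8.14% of protein-coding genes that entered. The share with CGGAAG thus lay near that of expressed genes. A match describes the letters only.

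Tissue isoforms of complex IV subunits were off or low. COX6A2, COX7A1, COX6B2 and COX8C, whose products replace their paralogs in muscle or testis, had 0 counts in every library, which allows up to 3 counts each. Their partners were all present: COX6A1 stood at 126, 147, 110 and 115 CPM, COX7A2 at 138, 156, 145 and 139, COX6B1 at 243, 289, 297 and 315, and COX8A at 133, 141, 168 and 157. COX7B2, known mainly from testis, was detected: it had 534, 632, 528 and 811 counts. It made up 9.77 and 13.4% of the COX7B and COX7B2 sum in H1299 without and with miR-34a, and 10.1 and 13.7% in the knockout. COX7B itself had 138, 124, 175 and 156 CPM.

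NDUFA4, a subunit now assigned to complex IV, had 121, 160, 178 and 198 CPM, and its hypoxia-linked paralog NDUFA4L2 had 14, 4, 12 and 6 counts, at most 0.324% of the pair. COX4I1, the common form of subunit 4, is left out by the symbol rule, and had 294, 257, 251 and 217 CPM, with COX4I2 at 0 in every library. Of the other members below the count minimum, UQCRHL, a copy of UQCRH, had 20, 28, 13 and 25 counts, and ATP5MGL had 0, 0, 2 and 3. UQCRH shares 29.4% of its windows with UQCRHL, so their reads may not be separable.

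The leading transcript model of a few members varied between libraries. Of 53 nuclear members with several transcripts and enough counts, 6 had a different leading transcript in some library. SDHA was the extreme: the model with most counts over all libraries held 36.9, 64.5, 68.3 and 9.95% of the gene's counts in the 4 libraries, while the gene had 4441, 3576, 2571 and 3094 counts, or 124, 109, 95.5 and 94.4 CPM. Its FPKM (25.5, 25.8, 23.1 and 29.6) did not follow that order.

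Complex by complex, the knockout differed from H1299 in the nuclear members by small amounts. Non-treated, the nuclear medians were 0.13 for complex I, -0.10 for complex II, 0.02 for complex III, 0.24 for complex IV and -0.05 for complex V. With miR-34a they were -0.11, -0.13, -0.16, 0.14 and -0.07. Complex I showed the largest shift between these comparisons: 21 of its 37 nuclear subunits were higher and 8 lower beyond counting error without miR-34a, and 13 were higher and 19 lower with it. Over all genes, 33.2% were higher and 35.8% lower without miR-34a, and 34.2% were higher and 35.7% lower with it. The mitochondrial medians of complex I were -0.69 and -0.23 in the same comparisons, and those of complex IV were -0.56 and -0.35. Complex IV was therefore the complex with the highest nuclear median in both comparisons of the lines, while its mitochondrial mRNAs were lower in the knockout in both, 3 of 3 beyond counting error.

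The mature miR-34a is shown with its seed, bases 2 to 8, in capitals, because nuclear members can be read for matches to it (RefSeq, GRCh38.p14, chromosome 1, minus strand):
hsa-miR-34a-5p: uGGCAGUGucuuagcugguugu
The longest annotated 3' UTR of each gene (GENCODE, GRCh38) was searched for CACTGCC and ACTGCCA, the sites that pair with the seed, and CACTGCCA holds both. Of 80 nuclear members that entered, 9 hold a site (11.2%), against 23.6% of protein-coding genes that entered. Their 3' UTRs are short, with a median of 446.5 bases against 1422. The longest 3' UTR need not be the one expressed, and ATP5F1A and ATP5MPL are named to show this. Their sites lie at bases 3862 and 977 of the 3' UTR, but their leading transcripts are only 1945 and 615 bases long. Those transcripts held 62.7 to 86.3% of the counts of ATP5F1A and 92.3 to 94.0% of those of ATP5MPL. Sites of 3 members are printed, 2 with the longest match and COX7A2, which has a site in a short 3' UTR; capitals mark the match, and NDUFC2 is named for its site alone:
NDUFA9, chr12:4688589-4688616, plus strand: gtatgagaagCACTGCCAtacagaagag
NDUFC2, chr11:78069703-78069730, minus strand: aaatctggccCACTGCCAataaagtctc
COX7A2, chr6:75237799-75237826, minus strand: acttgtagtaACTGCCAccaataaagca
With miR-34a in H1299, NDUFA9 went from 5113 to 5008 counts, at 0.09 (0.03 to 0.15). NDUFC2 went from 2316 to 2480 counts, at 0.22 (0.14 to 0.30), and COX7A2 from 4921 to 5126, at 0.18 (0.12 to 0.23). All 3 were thus slightly higher. Over the 9 members with a site in the longest 3' UTR the median was 0.18, with 0 lower beyond counting error. Over the 71 without it was 0.13, with 13 lower. Over protein-coding genes the medians were -0.10 for 2707 with a site and 0.06 for 8774 without. Of these genes, 1252 with a site and 2827 without were lower beyond counting error.

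Transcript length moved with the miR-34a ratio among nuclear members. Across 80 of them, Spearman's rho between the length of the main transcript and the log2 ratio was -0.41 in H1299 and -0.35 in DDX21 KO, against -0.12 and -0.07 across all protein-coding genes. These are descriptions across genes of the same libraries, and genes are not replicates. In H1299 the median log2 ratio was 0.25 for 23 members under 600 bases, 0.18 for 22 of 600 to under 1000 bases, -0.04 for 20 of 1000 to under 2000 bases and 0.06 for 15 of at least 2000 bases. Over all protein-coding genes, the medians of the same classes were 0.04, 0.12, 0.11 and -0.005, so the shortest genes in general rose less than the members. Nuclear members have short transcripts, with a median of 830.5 bases against 3502 for protein-coding genes that entered. The part of transcript length in the nuclear ratios was not tested. In the comparisons of the lines, rho was -0.02 non-treated and 0.06 with miR-34a.

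**Figure D5:**
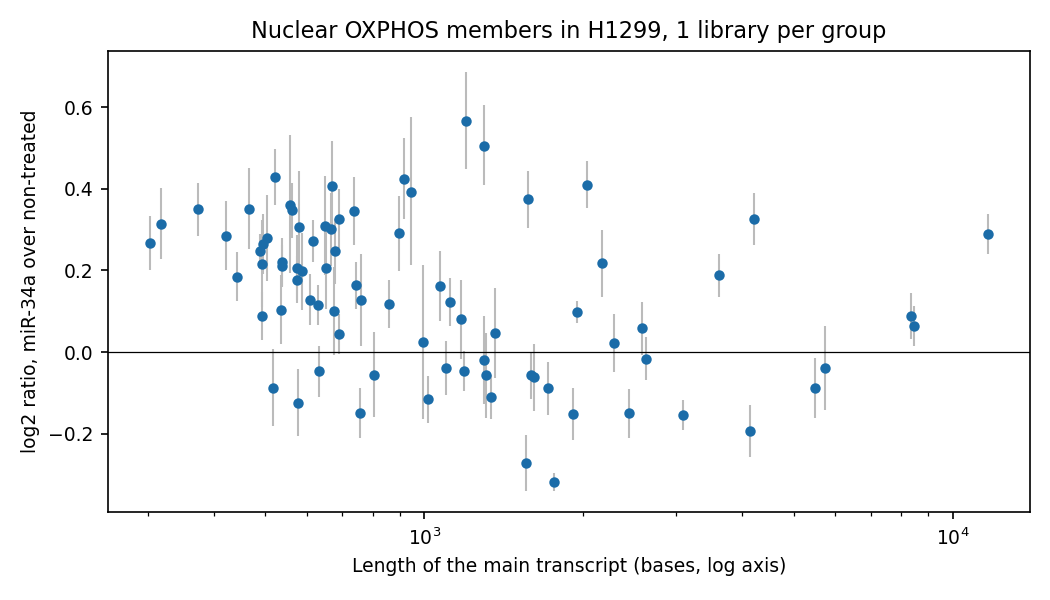
log2 ratio of miR-34a over non-treated in H1299 against the length of the main transcript in bases (log axis), for the 80 nuclear members that entered; vertical lines are 95% counting intervals. Members under 1000 bases lie mostly above 0, with medians of 0.25 and 0.18 in the length classes under 1000 bases, and longer ones lie on both sides.

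Other genes of the mitochondrion were read from lists of known function. Of 54 assembly factors of the complexes, 32 factors of mitochondrial transcription and RNA processing, 18 of mitochondrial DNA replication, 78 mitochondrial ribosomal proteins and 18 enzymes of the tricarboxylic acid cycle, 0 were called in any of the 4 comparisons or in the difference. Over all genes, 3.31 to 7.89% were called in these. Factors acting on mitochondrial RNA went both ways, as all genes did. With miR-34a in H1299, 9 of 32 were lower and 12 higher beyond counting error, where 35.6 and 36.7% of all genes were, and the median was 0.05. The lowest was HSD17B10, a subunit of mitochondrial RNase P, at -0.47 (-0.56 to -0.38), and the highest SUPV3L1, the helicase of the RNA-degrading complex, at 0.38 (0.28 to 0.48). In the non-treated comparison of the lines 13 were lower and 13 higher, where 35.8 and 33.2% of all genes were. The median was -0.00, and the highest was FASTKD1, of a family of mitochondrial RNA-binding proteins, at 0.59 (0.50 to 0.68). In the comparison of the lines with miR-34a 18 were lower and 12 higher, where 35.7 and 34.2% of all genes were. They ran from TEFM, the elongation factor of mitochondrial transcription, at -0.57 (-0.82 to -0.33) to FASTKD1 at 0.72 (0.62 to 0.82). A further 3 factors were chosen outside the rule for named genes, for their roles. TFAM, which packages mitochondrial DNA and starts its transcription, had 181, 170, 210 and 202 CPM. POLRMT, the mitochondrial RNA polymerase, had 60.0, 57.1, 43.7 and 48.6 CPM. LRPPRC, which stabilizes mitochondrial mRNAs, had 464, 512, 470 and 474 CPM. MRPL12, counted among these factors and the ribosomal proteins, was lowest of both lists in the non-treated comparison of the lines, at -0.88 (-1.05 to -0.72).

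Of 14 regulators of nuclear OXPHOS genes that entered, 1 was called in each comparison of the lines, where 6.54 and 6.95% of all genes were. This was PPARGC1A, a coactivator of mitochondrial gene programmes, lower in the knockout. It had 361, 351, 104 and 98 counts in the 4 libraries and stood at -1.37 (-1.72 to -1.07) non-treated and -1.81 (-2.17 to -1.51) with miR-34a. The list medians were -0.08 and 0.02, and the highest were GABPB1 at 0.50 non-treated and NFE2L2 at 0.64 with miR-34a. Among 11 electron carriers and other entry points that entered, SQOR, which passes electrons from sulfide to quinone, had 533, 1177, 888 and 1602 counts. It was called with miR-34a in H1299 at 1.26 (1.11 to 1.41) and in the non-treated comparison of the lines at 1.14 (0.99 to 1.30). It was the only gene of its list called there, where 7.89 and 6.54% of all genes were. CYCS, the cytochrome c that links complexes III and IV, had 348, 238, 547 and 409 CPM, lower with miR-34a in each line and higher in the knockout.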

How the data were processed

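Total RNA of 4 libraries, 1 per group, was sequenced after removal of ribosomal RNA, per the labels' protocols. Reads were handled with Bowtie2 2.0.6 and TopHat2 2.0.9 on GRCh38, per the submitters' processing notes; the counting tool, its annotation release, its use of strand and how reads with several origins were divided are not given in the sources used here. Deposited tables hold estimated counts per gene and per transcript, written as whole numbers, and FPKM per gene, per the file headers. Transcript lengths and signed fold-change scores of the authors' comparisons are deposited as well, per the file headers. The estimated counts were used as deposited.

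Library sizes were scaled by TMM (edgeR 4.0.16). Log2 ratios used a prior count of 2, genes needed 50 counts in at least 1 library compared, and intervals are exact Clopper-Pearson intervals of the read split at 95% (Poisson variance for the difference of ratios). The calculation was tested on simulated Poisson counts, the model that the intervals assume. That checks the code and does not cover variation between preparations. Counting intervals assume independent reads. Alternatives were library totals, DESeq2 1.42.0 size factors, TMM without mitochondrial DNA genes, other count minimums and prior count, FPKM with a pseudocount of 0.1, and narrower member lists.

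Members and lists were chosen with earlier results of these data known. Named genes are all mitochondrial members, nuclear members called, the 2 highest and 2 lowest ratios per comparison, the 3 highest FPKM, members at 0, tissue isoform pairs, and list extremes. Members named for opposite miR-34a ratios, marker genes of cell types, and genes marked in the text as chosen otherwise are exceptions. The 2 hyphenated symbols, readthrough genes, were left out. Promoters and the miRNA are from RefSeq (GRCh38.p14), and 3' UTRs and window searches from GENCODE.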

Additional observations from a re-analysis of the deposited data

Results flagged for a closer look

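In 7 of 92 members (7.61%) the miR-34a ratios lay on opposite sides of 0 in H1299 and in DDX21 KO, each beyond counting error, as in 3.96% of all genes that entered both comparisons. These shares are not matched for counts. The difference between the lines was not tested, since each ratio comes from 1 library per group. ND1 was the mitochondrial member, at -0.60 in H1299 and 0.37 in DDX21 KO, a difference of 0.97. The other 6 were nuclear, higher in H1299 and lower in DDX21 KO, with small differences: COX7C -0.28, NDUFS7 -0.28, NDUFB7 -0.24, UQCRB -0.23, ATP5F1A -0.22 and COX8A -0.18.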

How the results depend on the processing

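All 95 alternatives for the genome medians and all 55 for the mitochondrial minus the nuclear median stayed within the counting interval of the members at the median. This is a weak check, since that interval is wide. For miR-34a in H1299 the mitochondrial member at the median is ND3, with -0.84 to -0.12. Other scalings moved the median of all genes there from 0.003 to at most 0.020. A value could count as turned only from 2-fold on, which no median reached. The mitochondrial minus nuclear median ranged from -0.66 to -0.60 for miR-34a in H1299, -0.16 to -0.08 for miR-34a in DDX21 KO, -0.82 to -0.73 for the lines non-treated, -0.26 to -0.16 for the lines with miR-34a, and 0.55 to 0.56 for the difference. The nuclear median for miR-34a in DDX21 KO lay at 0 and changed sign, from -0.00 to 0.05. Counts of called members moved by over 1.5 times with the count minimum alone, since this sets which genes enter. With a minimum of 10 or none, miR-34a in H1299 gave 2 members (1 nuclear, NDUFA4L2, with 14 and 4 counts), miR-34a in DDX21 KO gave 1, and the lines with miR-34a gave 2; the member added in both of these was ATP8 (mitochondrial members 1). With a minimum of 200, miR-34a in H1299 gave 0 members (mitochondrial 0) and the lines non-treated gave 2 (mitochondrial 1), as ATP8 and ND3 no longer entered. The mitochondrial share of counts in the 4 libraries, as listed in the report, was 0.136, 0.118, 0.0982 and 0.0901% of protein-coding counts and 0.164, 0.128, 0.117 and 0.0990% of summed FPKM. No replicate could be left out with 1 library per group. No paired analysis was possible because each group has 1 library, so the groups share fewer than 2 replicate numbers. ATP8, ND3 and ND6 rest on 13 to 165 counts per library, which limits their ratios.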
